A study of Mus musculus with 46 samples.

Results

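H3.3 ChIP-Seq of fully reprogrammed mouse iPSCs was set against that of ESD3 cells, an embryonic stem cell line that never went through reprogramming. The comparison used the H3.3 peak list of each line, 2 of the 46 samples and 2 of the 30 samples with peak lists. A peak of either list was called shared when at least 1 bp of it lay under a peak of the other list, and iPSC-only or ESD3-only when none did. There was 1 library per line, so the spread between replicates is unknown for every difference given here, and intervals on shares are 95% Wilson intervals that cover counting error only.

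The series followed H3.3, H3K4me3 and H3K36me3 in mouse embryonic fibroblasts (MEFs) on their way to iPSCs, and H3.3 in a separate transdifferentiation of MEFs. The iPSCs came from MEFs of embryos that carry an EGFP cassette behind the stop codon of Oct4 (Pou5f1). These MEFs were infected with pMXs retroviruses for Oct4, Sox2, Klf4 and c-Myc, and the cells used were labelled as fully reprogrammed and were not sorted. ESD3 is the mouse embryonic stem cell line D3, for which the sources describe no infection. Both lines were grown without feeders in medium with leukemia inhibitory factor (LIF). The labels and the methods differ on the rest, since the labels name the feeder-free medium, which also holds basic fibroblast growth factor and the Gsk3 inhibitor CHIR99021, and the methods name media for the lines without these. The sources do not name the number of iPSC clones, and the 2 lines differ in origin, virus exposure and sequencing depth together, so these cannot be told apart.

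H3.3 is a variant of histone H3 that is put into chromatin throughout the cell cycle, whereas canonical H3 is supplied mainly at replication. The Hira complex places it at active genes and regulatory elements, and the Atrx and Daxx proteins place it at telomeres, pericentric repeats and some retroelements. In pluripotent cells it is known at promoters, along transcribed genes and at enhancers, and at genes held ready for later development.

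Windows from 4 peaks show the kinds of sites compared. The first lies in the shared peak over Nanog, which encodes a core pluripotency factor. The next lies in the strongest intergenic ESD3-only peak of ordinary input, beyond the 3′ end of Zfp42 (Rex1), a zinc finger gene used as a marker of naive pluripotent cells. The last 2 lie in the strongest peaks of Rrbp1, a ribosome-binding protein of the endoplasmic reticulum, and of Arhgap6. By summed signal over peaks with their midpoint in the gene, these were the leading genes with a peak in iPSCs only and in ESD3 only. Each window is the central 300 bases of the ESD3 peak or, for Rrbp1, of the iPSC peak, read from build mm9 on the plus strand, with CpG dinucleotides in capitals.
Nanog, shared, chr6:122661714-122662013: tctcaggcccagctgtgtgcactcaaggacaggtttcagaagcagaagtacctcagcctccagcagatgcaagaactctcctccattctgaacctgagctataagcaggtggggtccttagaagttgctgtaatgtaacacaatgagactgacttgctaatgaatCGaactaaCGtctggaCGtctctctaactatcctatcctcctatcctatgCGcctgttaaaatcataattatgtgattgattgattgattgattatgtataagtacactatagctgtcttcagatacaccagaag
Zfp42 region, ESD3-only, chr8:44376681-44376980: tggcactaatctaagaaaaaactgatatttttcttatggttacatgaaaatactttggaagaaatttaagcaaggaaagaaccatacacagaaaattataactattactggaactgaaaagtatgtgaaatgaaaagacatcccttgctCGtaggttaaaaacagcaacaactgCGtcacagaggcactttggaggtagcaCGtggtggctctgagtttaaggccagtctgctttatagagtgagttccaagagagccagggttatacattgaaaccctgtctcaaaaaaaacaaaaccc
Rrbp1, iPSC-only, chr2:143808018-143808317: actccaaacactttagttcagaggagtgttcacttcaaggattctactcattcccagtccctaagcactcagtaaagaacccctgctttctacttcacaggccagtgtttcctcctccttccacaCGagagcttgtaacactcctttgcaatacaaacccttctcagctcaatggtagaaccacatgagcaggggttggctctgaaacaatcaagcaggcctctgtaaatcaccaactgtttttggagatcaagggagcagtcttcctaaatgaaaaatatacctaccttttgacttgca
Arhgap6, ESD3-only, chrX:165370839-165371138: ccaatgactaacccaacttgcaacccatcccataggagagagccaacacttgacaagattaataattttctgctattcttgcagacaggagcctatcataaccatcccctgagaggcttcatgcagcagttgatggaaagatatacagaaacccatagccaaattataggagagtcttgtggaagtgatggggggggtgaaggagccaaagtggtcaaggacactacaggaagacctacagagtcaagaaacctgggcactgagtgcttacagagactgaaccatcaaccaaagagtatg

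The Nanog window covers the end of a coding exon and the intron behind it, and holds 4 CpG dinucleotides. The Zfp42 window is intergenic and holds 3, while the intronic windows of Rrbp1 and Arhgap6 hold 1 and 0. The GC content ran from 37.7% in the Zfp42 window to 46.0% in the Arhgap6 window.

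The iPSC library was the deeper one, with 41.2 M tags and 13.96% of them in peaks, against 21.6 M tags and 7.40% for ESD3. The iPSC list placed 81542 peaks over 107 Mb, and the ESD3 list placed 52413 peaks over 48.3 Mb. The normalized tag count, the signal of a peak, is its tags scaled to a library of 10 M tags, with no division by length and no subtraction of input. A peak had to reach 22 tags in 500 bp in iPSCs and 14 in ESD3, which is 10.7 and 13.0 tags per 10 M per kb, so signal per kb has a different floor in each list and was compared only within a list. Another difference of counting was that up to 2 tags per position were kept in iPSCs and 1 in ESD3.

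Both libraries carried the marks of pluripotent cells at the genes that define them. All 8 pluripotency markers, among them Pou5f1, Sox2, Nanog and Esrrb, had a peak in both lines, counted over the gene and 1 kb to each side, and 4 of the 8 did in D0, the MEFs before infection. Of 8 fibroblast markers, 1 had a peak in iPSCs and 0 in ESD3, against 8 in D0. Their summed signal was 30.0 tags per 10 M in iPSCs, 0 in ESD3 and 3095 in D0. All 4 trophoblast markers had a peak in iPSCs and 2 did in ESD3, while primitive endoderm markers had a peak at 1 and 2 of 4.

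Of the iPSC peaks, 28174 of 81542 were shared (34.6%, interval 34.2 to 34.9%). Of the ESD3 peaks, 31313 of 52413 were shared (59.7%, interval 59.3 to 60.2%). The bases covered in both lists came to 28.0 Mb, which was 26.3% of the iPSC length and 58.0% of the ESD3 length. Most of the signal lay in shared peaks, which held 57.8% of the summed tag count in iPSCs and 74.7% in ESD3.

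Shared peaks were the long ones. Their median length was 1.52 kb in iPSCs and 0.769 kb in ESD3, against 0.639 kb for iPSC-only and 0.500 kb for ESD3-only peaks. In iPSCs the shared proportion went from 13.8% of peaks of up to 0.5 kb to 99.2% of those over 8 kb, or 473 of 477. In ESD3 it went from 41.5% to 31 of 31 over the same lengths. A longer peak has more bases with which to meet a peak of the other list, so length and sharing are not independent measures.

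**Figure D1:**
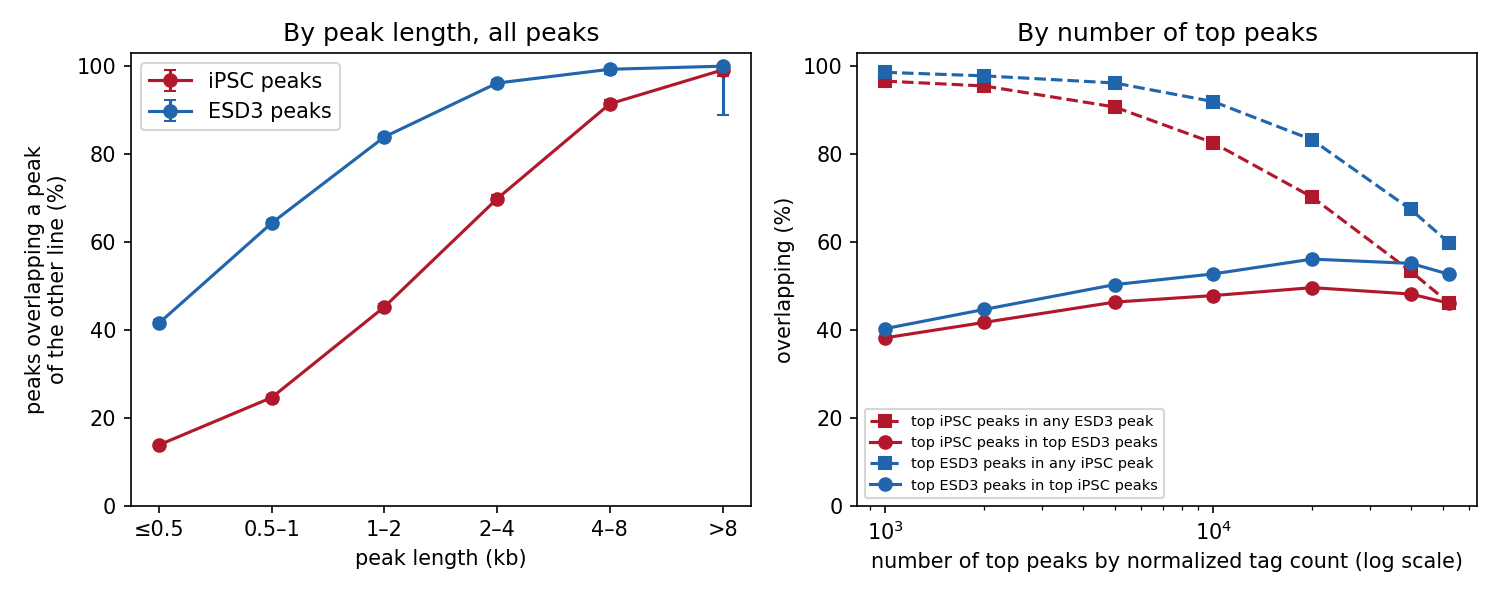
The left panel plots the percentage of peaks that overlap a peak of the other line against peak length in kb, with 95% Wilson intervals; it climbs from 13.8% to 99.2% in iPSCs and from 41.5% to 100% in ESD3. The right panel plots overlap against the number of top peaks taken by normalized tag count on a log axis, where broken lines (any peak of the other line) start at 96.6% and 98.6% and solid lines (its equally many top peaks) stay between 38.2% and 56.1%.

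The peaks of 1 line seldom lay far from those of the other. The distance from an iPSC-only peak to the nearest ESD3 peak had a median of 5.25 kb, and 10.9% lay over 50 kb away. For ESD3-only peaks the median was 3.10 kb, and 7.95% lay over 50 kb away. Broad domains were also cut differently, since 3332 of the shared iPSC peaks (11.8%) each held 2 or more ESD3 peaks, and as many as 16.

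At equal numbers, the 2 lists were closer to each other in overlap. Taking the 52413 peaks of highest normalized tag count from each list, 46.0% of the iPSC peaks (interval 45.6 to 46.5%) and 52.6% of the ESD3 peaks (52.2 to 53.1%) overlapped. Ranked by tag count per kb instead, the shares were 41.2% and 47.2%. Among the 1000 strongest iPSC peaks, 96.6% overlapped some ESD3 peak, yet only 38.2% overlapped one of the 1000 strongest ESD3 peaks. The corresponding shares of the 1000 strongest ESD3 peaks were 98.6% and 40.3%. The order by tag count favours long peaks. By tag count per kb, 59.6% of the 1000 strongest iPSC peaks and 82.3% of the 1000 strongest ESD3 peaks overlapped any peak of the other line, and 31.3% and 33.1% one of its 1000 strongest.

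A stricter limit on enrichment reordered the 2 lists. When peaks under 4-fold over input were left out, 18400 iPSC peaks (22.6%) and 31257 ESD3 peaks (59.6%) remained. The shared proportion then was 19.9% in iPSCs and 12.1% in ESD3, so the order of the lines turned. The median fold over input of all peaks was 3.25 in iPSCs and 4.25 in ESD3.

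Against other libraries at 33972 top peaks each, the number in the smallest list used, 49.0% of iPSC peaks overlapped ESD3 peaks and 46.5% overlapped D16S+ peaks, from day 16 cells positive for the surface antigen SSEA-1. Library names give the day, the sorting marker (T for Thy-1 on fibroblasts, S for SSEA-1 on pluripotent cells) and its presence or absence. D4, cKit+ and cKit- are transdifferentiation libraries, the last pair sorted for the progenitor receptor cKit. With D0 the share was 32.1%. Of the ESD3 peaks, 56.1% overlapped iPSC peaks, 42.0% overlapped D12S- peaks, 37.2% overlapped D16S+ peaks and 29.4% overlapped D0 peaks. ESD3 peaks thus met the SSEA-1-negative D12S- more often than the SSEA-1-positive D16S+, while 45.2% of iPSC peaks met D12S-. The reverse shares had the other order, with 39.0% of D16S+ and 32.2% of D12S- peaks overlapping ESD3 peaks. Of the genes with a peak in either library of a pair, ESD3 shared 58.9% with D16S+ and 54.8% with D12S-. The 2 fibroblast libraries of the series, D0 and the transdifferentiation MEF, overlapped by 50.8% and 60.5%. These pairs share libraries and the covered lengths differ, so the shares are given as a description.

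Shared peaks were found more often at promoters, and in iPSCs at gene ends, while single-line peaks were found more often in introns. Peaks were classed by their midpoint, the promoter-TSS class running from 1000 bp ahead of a transcription start site (TSS) to 100 bp behind it and the TTS class from 100 bp before a transcript end to 1000 bp past it. In iPSCs, promoters took 9.40% of shared and 7.55% of iPSC-only peaks, TTS took 6.52% and 4.39%, and introns took 39.7% and 46.5%. In ESD3, promoters took 9.93% of shared and 4.70% of ESD3-only peaks, TTS 6.66% and 6.17%, and introns 39.9% and 47.5%. Intergenic peaks made up 39.6% of shared and 37.2% of iPSC-only peaks, and 38.4% of shared and 36.04% of ESD3-only peaks in ESD3.

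Over all genic classes, shared peaks were genic in 2.35 percentage points fewer cases than iPSC-only peaks (a difference of -2.35, interval -3.06 to -1.65). Against ESD3-only peaks the difference was -2.39 points (-3.23 to -1.55). With at least 4-fold over input the differences were -8.70 and -16.5 points, and with an overlap of at least 0.5 of the peak they were -5.46 and -3.95, each with fewer genic peaks among the shared. Of the single classes, promoters stood out in ESD3, where 75.8% of all promoter peaks were shared (74.5 to 77.1%) against 55.5% of intron peaks. In iPSCs the shared proportion was 39.7% of promoter peaks, 44.0% of TTS peaks and 31.1% of intron peaks.

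At equal numbers of peaks the promoter difference stayed in ESD3 and narrowed in iPSCs. Promoters took 10.4% of shared and 4.97% of ESD3-only peaks, against 9.92% of shared and 9.19% of iPSC-only peaks. Introns still took less of the shared peaks in both lines, 38.9% against 44.1% in iPSCs and 39.3% against 47.1% in ESD3.

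**Figure D2:**
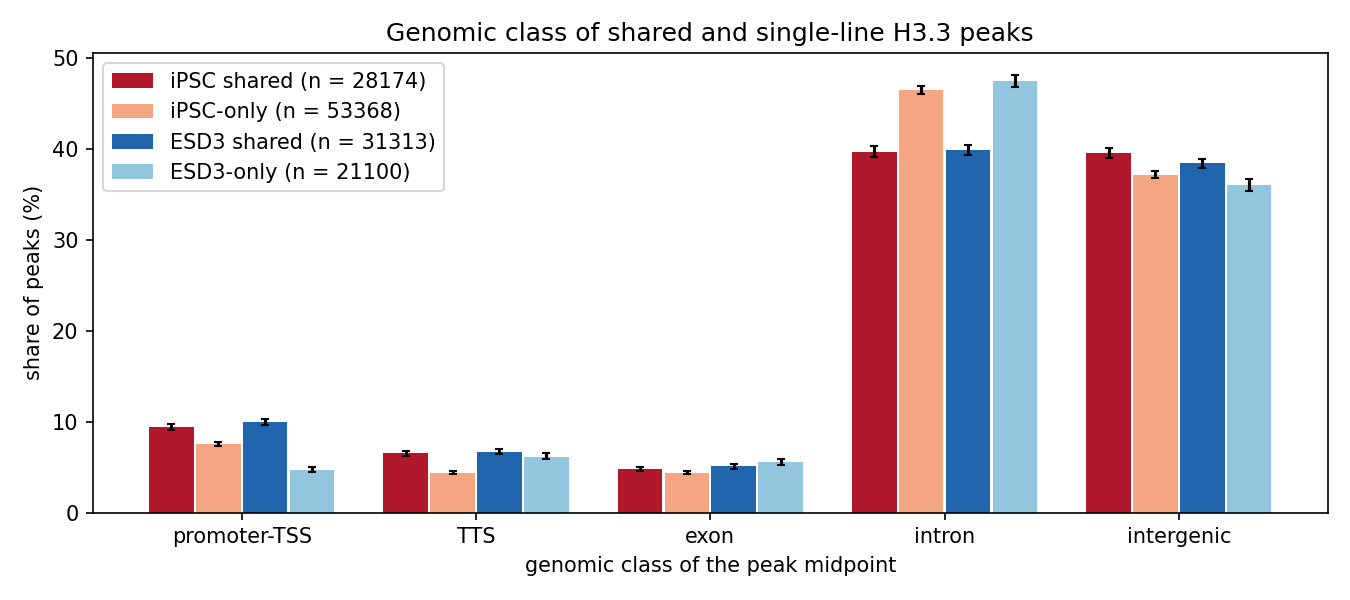
Bars give the percentage of peaks (vertical axis) in each genomic class of the peak midpoint (horizontal axis) for shared and single-line peaks of each line, with 95% Wilson intervals. ESD3-only peaks have the lowest promoter share, 4.70%, and both single-line groups have more intron peaks (46.5% and 47.5%) than the shared groups (39.7% and 39.9%).

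Signal per kb differed little between shared and single-line peaks. The median was 12.4 tags per 10 M per kb in shared and 11.5 in iPSC-only peaks, a ratio of 1.08. In ESD3 it was 14.6 in shared and 13.5 in ESD3-only peaks, a ratio of 1.09. Every class showed the same order. At promoters the medians were 12.7 and 11.9 in iPSCs and 14.7 and 13.7 in ESD3, and in intergenic peaks they were 12.8 and 11.7, and 14.9 and 13.7. All these medians sit just above the floor that peak calling set in each list. The count has no input subtracted, and the median input per kb was higher in shared peaks too. It was 3.88 against 3.58 in iPSCs and 3.54 against 2.96 in ESD3. The median fold over input had the other order, 3.23 in shared and 3.27 in iPSC-only peaks. In ESD3 it was 4.16 in shared and 4.40 in ESD3-only peaks. In lists of equal number the medians were 12.7 and 12.0 in iPSCs and 14.8 and 13.6 in ESD3.

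Trimethylation of H3 lysine 4, a mark of active and poised promoters that was profiled in the same iPSCs, was more frequent at shared peaks. Of the shared iPSC peaks, 40.7% overlapped an H3K4me3 peak (40.1 to 41.3%), against 22.8% of the iPSC-only peaks (22.4 to 23.2%), a difference of 17.9 points (17.3 to 18.6). Among peaks of up to 0.5 kb the shares were 14.5% (13.4 to 15.7%) and 12.9% (12.5 to 13.4%), so the difference was smaller among short peaks. For ESD3 peaks of up to 0.5 kb the same iPSC mark lay at 26.2% of shared and 6.84% of ESD3-only peaks. H3K4me3 of ESD3 was not analysed here, and an ESD3-only peak by definition had no H3.3 peak in the iPSCs in which the mark was profiled. H3K36me3, a mark of transcribed gene bodies, lay at 13.4% of shared and 8.23% of iPSC-only peaks.

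Single-line peaks were in part present in the other H3.3 libraries. D0 had a peak at 46.6% of shared iPSC peaks and 29.4% of iPSC-only peaks, and at 43.6% of shared ESD3 peaks and 26.0% of ESD3-only peaks. D16S+ had one at 46.6% of shared and 13.9% of iPSC-only peaks, and at 41.6% of shared and 7.40% of ESD3-only peaks. Single-line peaks thus overlapped fewer D16S+ than D0 peaks, but the D16S+ list is also the smaller one, with 33972 peaks against 89614.

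The sequence at the centre of shared intergenic peaks held each of the 4 motifs searched more often than that of single-line peaks, the AP-1 motif included. Motifs were searched on both strands in the central 500 bases and in windows 5 kb aside, and the 4 words searched were ATGCAAAT (the octamer bound by Oct4), TCAAGGTCA (bound by Esrrb), GGGNGNGGC (bound by Klf factors) and TGANTCA (bound by AP-1). The octamer was in 5.27% of shared and 4.27% of iPSC-only centres, and in 5.36% of shared and 3.71% of ESD3-only centres. In the windows aside it was in 3.51% and 4.04%, and in 3.43% and 3.20%. Above their own surroundings, the shared centres therefore stood out more than either single-line group.

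The Esrrb word was in 2.23% of shared and 1.44% of iPSC-only intergenic centres, and in 2.21% and 1.85% in ESD3. The Klf word was in 16.2% and 12.6% in iPSCs and in 16.2% and 12.7% in ESD3, against 8.73% to 10.2% aside. AP-1, a factor pair known from fibroblast enhancers, had its word in 17.3% and 14.8%, and in 16.8% and 16.0%, against 13.7% to 15.0% aside. None of the words contains another, and a match describes a sequence and not a bound site. Over all classes, the octamer was in 3.83% of shared and 3.24% of iPSC-only centres, and in 2.74% and 2.87% for peaks of up to 0.5 kb. The Klf word still differed in these short peaks, with 13.7% of shared and 10.1% of iPSC-only centres. In ESD3 it was in 14.2% of shared and 11.1% of ESD3-only centres of short peaks. None of the 4 words occurs in the windows printed above.

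Among the strongest shared domains of the iPSC list, the longest ran over Phf17, with 54.3 kb and a tag count of 799 in iPSCs, and 16 ESD3 peaks of 296 in all in the same place. At Trim71, an RNA-binding regulator of the embryonic stem cell cycle, the tag counts were 391 in iPSCs and 392 in ESD3. Igf2bp1, which encodes an RNA-binding protein of embryonic cells, had 337 and 175, and Ncoa3, a coactivator, had 370.0 and 198. The highest count among these domains, 1024 in iPSCs and 347 in ESD3, belonged to a 44.6 kb domain at chr12:88222525-88267165. Its input was 2.20 times the library median in iPSCs. Shared peaks of high input are left out here, such as the one over Pou5f1, with 5742 in iPSCs at 28.2 times the median. Unlike the others named, the Trim71 domain was as strong in ESD3 as in iPSCs.

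The strongest single-line peaks were mostly places of high input. An input density over 3 times the median of the library was found in 162 iPSC-only peaks (0.304%), but in 15 of the 20 strongest. It was found in 84 ESD3-only peaks (0.398%) and in 11 of the 20 strongest. The highest iPSC-only count, 2382 at chr13:77577970-77578595, had an input 504 times the median. In such regions the tag count says little about H3.3, so the strongest peaks of ordinary input are described here.

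Among iPSC-only peaks of ordinary input, the strongest was an intergenic one at chr5:23206054-23216168, with a count of 176 and peaks in 11 of the 14 other H3.3 libraries. Next came peaks in an intron of Eif4b, a translation initiation factor, with 123.3, and at the promoter of Atxn2l with 109.9. These were present in 14 and 13 of the other libraries, with D0 counts of 483 and 297. At the Eif4b intron it was ESD3 that stood apart, since it alone lacked the peak. Of the 10 strongest peaks of this kind, 6 had a peak in 11 to 14 of the other libraries and 4 in 1 or 2.

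Among those 4 were sites otherwise marked late in reprogramming. The intergenic peak at chr5:25084265-25089786 had a count of 107, and apart from iPSCs only D12S+ (44.4) and D16S+ (68.3), the SSEA-1-positive cells of days 12 and 16, had a peak there. The peak at chr12:19819557-19824942 had 103.4, and only D16S+ had another, of 34.2. Thus the first was found in 2 and the second in 1 of the 14 other libraries. Their sequence is largely repeated, since of 9 words of 32 bases from the central 300 bases, 2 and 1 occur once in the genome. Over the 4 strongest intergenic iPSC-only peaks of ordinary input, 5 of 36 such words occur once. For 4 ESD3-only and 4 shared intergenic peaks it was 24 and 29 of 36. Chromosome 18 was left out when these peaks were chosen, and with it an intergenic ESD3-only peak of 62.7. With so few peaks per group, the counts describe these peaks only.

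Among ESD3-only peaks of ordinary input, the strongest was the one downstream of Zfp42 whose window is printed above, at chr8:44374655-44379006, with a count of 71.9 over 4.35 kb. None of the 14 other H3.3 libraries had a peak there, while the iPSCs had H3K4me3 of 5.51 and H3K36me3 of 11.5. An intron of Hs2st1, a heparan sulfate sulfotransferase, had 64.3 in ESD3 and peaks of 10.4 in D0 and 9.57 in D4, a transdifferentiation library. An intron of Sorl1 had 55.7, with another peak only in D12S-, and one of Dtx1, a Notch pathway ubiquitin ligase, had 54.1 with none in the other H3.3 libraries. Of the 10 strongest ESD3-only peaks of this kind, 7 had a peak in 0 to 3 of the other libraries, 2 in 8 and 1 in 14. The peaks named here were chosen after their values were seen.

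The genes of the 2 lines were compared next. A gene was called bound when the midpoint of a peak lay in it or within 1 kb. Of 22367 protein-coding gene records, 10198 were bound in both lines (45.6%), 3020 in iPSCs only (13.5%) and 1076 in ESD3 only (4.81%). The shared genes were 77.2% of those bound in iPSCs and 90.5% of those bound in ESD3. With equal numbers of top peaks, 9299 genes were bound in both (41.6%), 2025 in iPSCs only (9.05%) and 1975 in ESD3 only (8.83%), so the single-line counts were nearly equal. With only peaks of at least 4-fold over input, 4588 genes were bound in both, 1826 in iPSCs only and 4469 in ESD3 only. The order of the single-line counts thus turned with that limit, and genes bound in both were then fewer than those bound in 1 line only.

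The midpoint rule misplaces genes that share a broad domain. By a rule added after seeing the data, a gene was counted when any base of a peak lay over it or within 1 kb, and its signal was the part of the tag count over those bases. By this rule 10773 genes had a peak in both lines (48.2%), 2910 in iPSCs only (13.0%) and 888 in ESD3 only (3.97%). With equal numbers of peaks the values were 9986 (44.6%), 1985 (8.87%) and 1675 (7.49%). All gene signals below follow this rule.

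Over the 10773 genes with peaks in both, the iPSC signal was higher by a median of 0.83 on the log2 scale, with the middle 50% of genes between 0.16 and 1.55. Ratios below are therefore given as relative log2 ratios, the log2 of iPSC over ESD3 signal minus this median. By that measure 501 genes (4.65%) were at least 4-fold higher in iPSCs and 439 (4.08%) at least 4-fold higher in ESD3. Centring on the median itself tends to balance these counts.

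Core pluripotency genes had H3.3 in both lines. Of 44 such genes, 37 had a peak in both, 5 in iPSCs only, 0 in ESD3 only and 2 in neither, against 48.2% of all genes in both, 13.0% in iPSCs only and 3.97% in ESD3 only. The 5 iPSC-only genes (11.4%) are thus near the share over all genes. The median relative log2 ratio was -0.06. At equal numbers of peaks, 36 had it in both, 3 in iPSCs only and 1 in ESD3 only. The list as a whole was therefore placed near the median of all genes, while its members spread over a wide range.

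Among the pluripotency genes, Nanog, Zfp42 and Esrrb leaned to ESD3 relative to that median, and Nanog and Zfp42 also in signal as such. The list as a whole did not share this lean, since of the 37 genes with peaks in both lines 16 lay above the median and 21 below. Prdm14 (0.58) and Dppa3 (0.46) were among those above. Nanog had a signal of 131 in iPSCs and 215 tags per 10 M in ESD3, a relative log2 ratio of -1.54. Zfp42 had 81.2 and 147 (-1.68), Tdgf1, a co-receptor of Nodal signalling, had 91.6 and 116 (-1.17), and Esrrb, an orphan nuclear receptor, had 557 and 544 (-0.79). Outside the 2 lines, Zfp42 had a peak only in D16S+, with 11.7. Nanog reached 144 in D16S+ and 102 in D12S+, so it was already close to the iPSC level there.

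Other members leaned to iPSCs. Lin28a, an RNA-binding protein that blocks let-7 maturation, had 191 in iPSCs and 26.8 in ESD3 (2.01), and at most 17.0 in any other library. Dnmt3l, the cofactor of the de novo DNA methyltransferases, had 155 and 0, with 37.3 in D16S+. Rif1, a regulator of replication timing, had 272 and 46.5 (1.72), and Dppa4, a chromatin protein of pluripotent cells, had 71.6 and 13.1 (1.63). Lefty2, an inhibitor of Nodal, went the other way, with 5.35 and 32.8 (-3.44). Klf2 had 18.4 and 0, Sox2 had 38.4 and 27.9 (-0.36), and Klf4 had 56.1 and 26.4 (0.26).

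Pou5f1 itself could not be compared by tag count. In iPSCs a single peak of 21.6 kb with a count of 5742 covered it, but its input was 28.2 times the library median, against 1.23 times in ESD3, where 2 peaks had 178. Input was 18.0 to 36.01 times the median over the Pou5f1 peaks of D9T-, D12S+, D16S+, D12S- and D16S-. It was 0.505 times in MEF and 1.21 times in D4, and the other libraries had no peak there. The signal over the gene, 1792 in iPSCs and 68.4 in ESD3, thus moved with the input, and the part of the input in it was not tested. The neighbouring gene Tcf19, under the same iPSC peak, had 1346 and 76.6. Of the other 3 delivered factors, Myc had 46.4 and 9.95 (1.39).

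**Figure D3:**
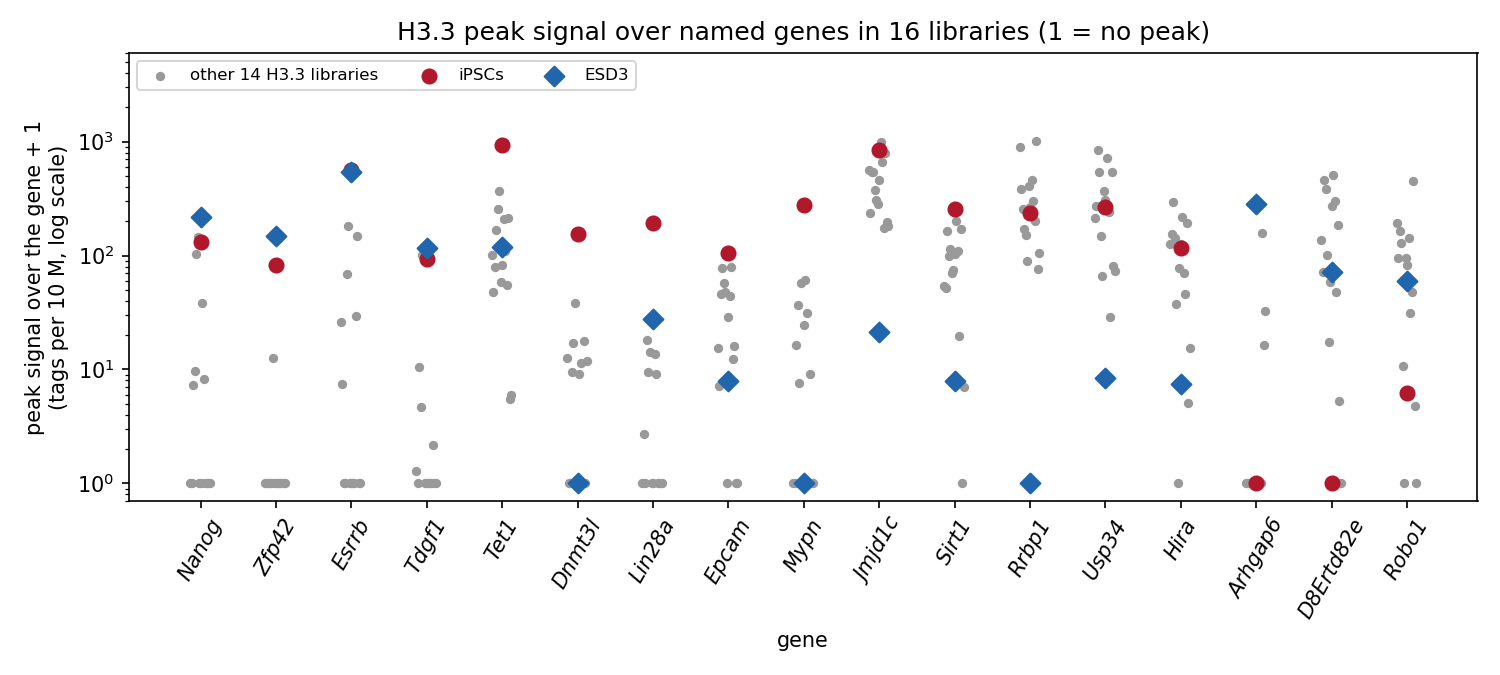
The vertical axis, on a log scale, gives the peak signal over the gene in tags per 10 M plus 1, for 17 named genes (horizontal axis), with iPSCs as circles, ESD3 as diamonds and the other 14 H3.3 libraries as grey points. Nanog and Zfp42 are highest in ESD3, Lin28a, Dnmt3l and Mypn are highest in iPSCs, and Rrbp1 has signal in every library but ESD3.

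Regulators of the germ layers, which drive differentiation and are silent or poised in pluripotent cells, leaned to ESD3 relative to the median of all genes. Of 31 genes, 10 had a peak in both lines, 2 in iPSCs only and 7 in ESD3 only (22.6%, against 3.97% of all genes), and 12 had none. All 10 with peaks in both lay below the median of all genes, with a median relative log2 ratio of -1.14, although in signal as such Mixl1 (14 and 8.05), Hnf4a (21.7 and 13.6), Nes (43.9 and 40.3) and Tbx6 (28.0 and 18.9) were higher in iPSCs. In the equal lists 2 were iPSC-only and 9 ESD3-only (29.0%, against 7.49%). Pax7, a myogenic and neural crest factor, had 7.77 in iPSCs and 37.7 in ESD3 (-3.11), and Gata4, an endoderm and heart factor, had 15.6 and 38.2 (-2.12). Eomes, a mesendoderm factor, had 0 and 23.4. The 2 iPSC-only genes were Gata3, a trophoblast factor, with 66.6 in iPSCs, and Neurog2, a neuronal factor, with 21.4. Signals were low, and 6 of the 7 ESD3-only genes had between 6.01 and 6.94 tags per 10 M, which is about the calling floor of a 500 bp peak. That floor was 5.35 tags per 10 M in iPSCs and 6.48 in ESD3, while the median log2 ratio of all genes was 0.83. A gene with 1 such peak at the floor in each line would therefore also lie below the median. The part of the floors in this lean was not tested.

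The Hox genes, which set position along the body axis, showed the same lean. Of 40 records, 10 had a peak in both lines, 4 in iPSCs only (10.0%), 7 in ESD3 only (17.5%) and 19 in neither. Over all genes, 13.0% had one in iPSCs only and 3.97% in ESD3 only. The median relative log2 ratio of the Hox genes was -0.97. Hoxa11 had 5.71 in iPSCs and 28.2 in ESD3 (-3.13), and Hoxa10 had 19.1 and 50.5 (-2.23). Hoxa4 and Hoxa2 were slightly on the iPSC side, with 0.55 and 0.42. At equal numbers of peaks 3 were iPSC-only (7.50%, against 8.87% of all genes) and 9 ESD3-only (22.5%, against 7.49%). Neighbouring Hox genes lie within the same cluster and are not independent of each other. The limit given for weak germ layer genes, from the different calling floors, holds for weak Hox genes too.

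Genes named Zfp, most of which encode Krüppel-type zinc finger proteins, leaned to iPSCs. Of 365 records, 209 had a peak in both lines, 85 in iPSCs only (23.3%, against 13.0% of all genes), 7 in ESD3 only and 64 in neither. The median relative log2 ratio of those with peaks in both was 0.45, with 137 above and 72 below the median of all genes. In the equal lists 61 were iPSC-only (16.7%, against 8.87%) and 20 were ESD3-only (5.48%). Zfp462 had 994 and 234 (1.26), Zfp316 had 63.6 and 0, and Zfp532 was on the ESD3 side with 589 and 546 (-0.72). The Gm13 zinc finger genes of chromosome 4 had high signal in both lines, led by Gm13242 with 1830.3 and 553, but its input was 4.82 and 3.98 times the median, and near-identical copies there cannot be told apart.

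Ribosomal protein genes and replication-dependent histone genes leaned to ESD3 in signal relative to the median of all genes. Of 83 ribosomal protein genes, 72 had a peak in both lines, 7 in iPSCs only (8.43%, against 13.0% of all genes) and 0 in ESD3 only. Of the 72, 56 lay below the median of all genes, with a list median of -0.49. Rpl3 had 127 in iPSCs and 151 in ESD3 (-1.07), and Rps10 had 109.7 and 128 (-1.05). Of 66 histone genes, 53 had a peak in both, 42 of them below the median, with a list median of -0.56. A further 7 had one in iPSCs only (10.6%) and 3 in ESD3 only (4.55%), near the shares over all genes. Hist2h3c1 had 42.4 and 53.3 (-1.16). These genes are short and mostly had a peak in both lines, against 48.2% of all genes, and their signal relative to other genes was higher in ESD3. Where peaks cover a gene to a like length in both lines, its signal follows the signal per kb. Rpl3, for instance, had 6.60 kb covered in iPSCs and 6.41 kb in ESD3. Signal per kb has a different floor in each list, with medians in shared peaks of 12.4 in iPSCs and 14.6 in ESD3. The part of this difference in the lean was not tested.

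The H3.3 genes and their chaperones, and the genes that silence retroelements, mostly had a peak in both lines, against 48.2% of all genes. Of 11 in the first list, 10 had a peak in both and Asf1a had one in iPSCs only, of 7.55 (9.09%, against 13.0% of all genes). Hira, the chaperone that gives its complex its name, had 117 in iPSCs and 6.48 in ESD3 (3.34), whereas Daxx had 106 and 66.9 (-0.16) and Atrx had 47.0 and 33.7 (-0.35). Of 16 silencing genes, 14 had a peak in both. Dnmt3b, a de novo DNA methyltransferase, had 190.2 and 25.6 (2.06), while Dnmt1, which maintains methylation, had 162 and 169 (-0.89) and Dnmt3a had 117 and 143 (-1.12). Trim28, the corepressor of zinc finger proteins, had 145 and 106 (-0.38).

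Genes of 3 signalling pathways mostly had a peak in both lines, against 48.2% of all genes. For LIF and Stat3 it was 9 of 10, with Stat3 at 82.8 and 63.4 (-0.44), and Jak1 at 0 and 12.9. For the Fgf and Erk pathway it was 19 of 23 records, with Fgf5, a marker of primed pluripotency, at 5.35 and 15.0 (-2.31), and the immediate early gene Egr1 at 5.22 and 19.9 (-2.76). For Wnt it was 16 of 19, with Tcf7l1, the repressor acting at Wnt targets, at 1058 and 620.2 (-0.06), Tcf7 at 18.3 and 43.7 (-2.08) and the feedback inhibitor Axin2 at 33.3 and 0. Of these lists, the Wnt list had 4 ESD3-only genes (21.1%, against 7.49% of all genes) at equal numbers of peaks. With all peaks the Wnt list had 0 ESD3-only genes.

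Among the remaining lists, 23 of 30 epithelial genes had a peak in both, against 48.2% of all genes. Epcam, a cell adhesion protein, had 104 in iPSCs and 6.94 in ESD3 (3.07) and Cdh1 (E-cadherin) had 675 and 556 (-0.55). Of 40 fibroblast and mesenchymal genes 11 had a peak in both, 6 in iPSCs only (15.0%, against 13.0% of all genes), 1 in ESD3 only (2.50%, against 3.97%) and 22 in neither. Of 39 imprinted genes 22 had a peak in both, 4 in iPSCs only (10.3%) and 2 in ESD3 only (5.13%), near the shares over all genes. Of 27 housekeeping genes 24 had a peak in both, and of 30 germline genes 7 did, against 48.2% of all genes. Receptor genes of the nose were nearly empty, with no peak at 1074 of 1087 olfactory and 295 of 320 vomeronasal receptor genes. Most clustered protocadherins were empty too, with none at 19 of 24. Over all genes, 34.9% had a peak in neither line.

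**Figure D4:**
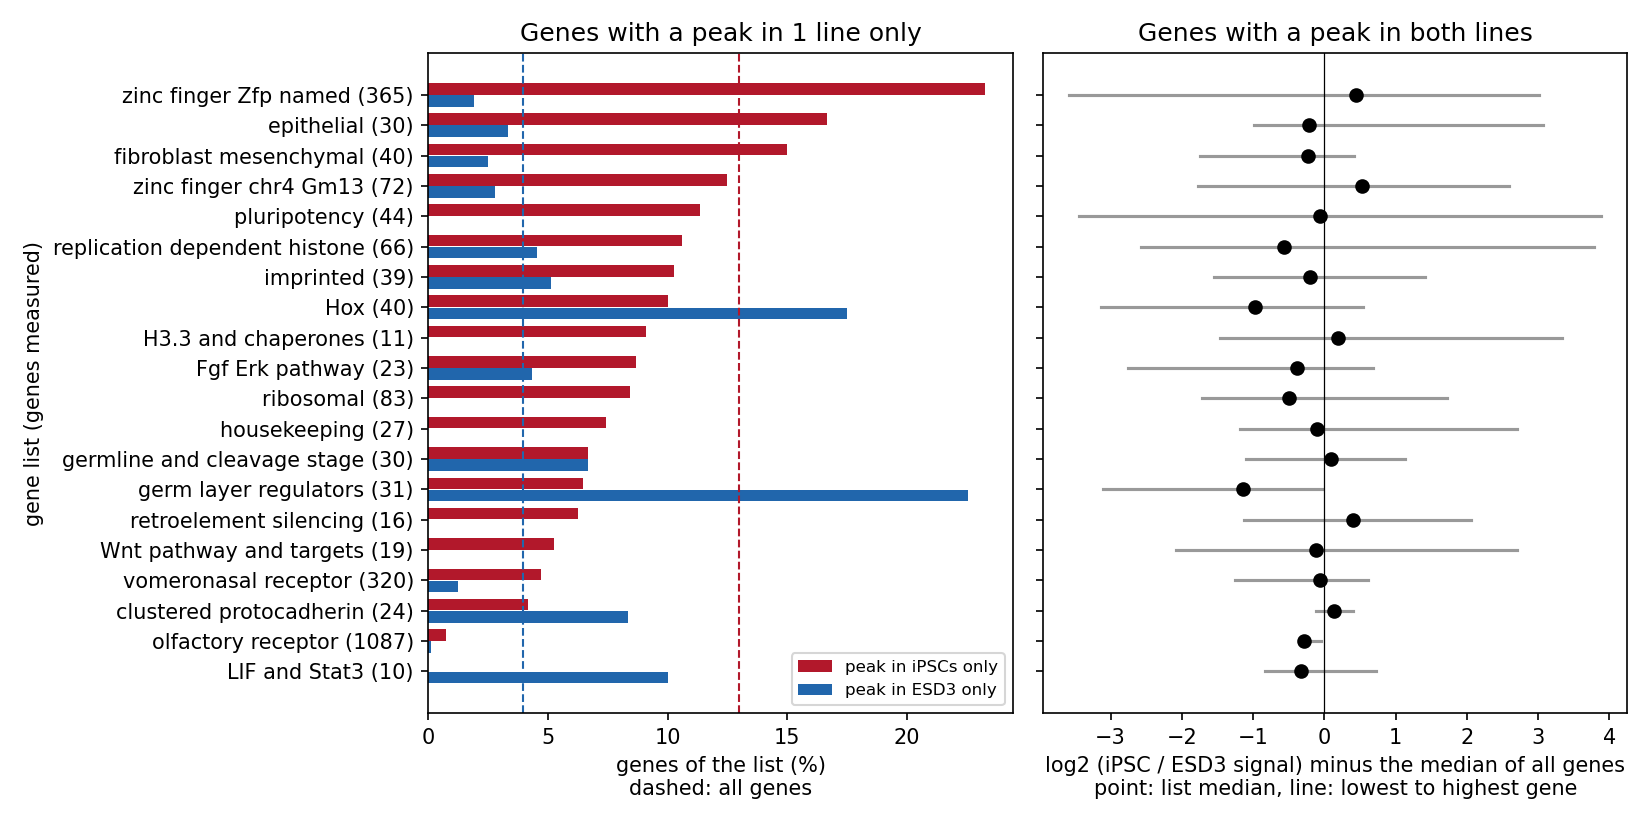
The left panel gives, for each gene list on the vertical axis, the percentage of its genes with a peak in iPSCs only and in ESD3 only, with all genes as broken lines (13.0% and 3.97%); the zinc finger list reaches 23.3% in iPSCs only and the germ layer list 22.6% in ESD3 only. The right panel gives the relative log2 ratio of genes with peaks in both lines, as list median and range; the germ layer and Hox lists have the lowest medians (-1.14 and -0.97).

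The genes chosen by signal alone were named by rule from the midpoint counts. Of the 10 strongest iPSC-only genes, 8 had no ESD3 peak over them either, and 6 were on chromosome 10. Rrbp1 had 236 in iPSCs and 0 in ESD3, and between 74.6 and 1006 in all 14 other libraries, so that ESD3 was the one library without it. Mypn, a muscle sarcomere protein, had 276 and 0, and at most 59.7 elsewhere. Ccdc6 had 264 and 0, Ccdc109a, the mitochondrial calcium uniporter, had 179 and 0, and Mob4 had 115 and 0. Ascc1 had 152 and Lims1 had 139, each with 0 in ESD3.

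Of the 10 strongest ESD3-only genes by midpoint, 8 had part of an iPSC peak over them. The exceptions were Arhgap6, with 22 peaks and a signal of 283 in ESD3 and 0 in iPSCs, and D8Ertd82e with 71.2 and 0. Arhgap6 otherwise had signal only in D4 (155), cKit+ (15.5) and cKit- (31.8), all of the transdifferentiation series. D8Ertd82e had a peak in 13 of the 14 other libraries, and cKit- lacked it as the iPSCs did. Its signal was 457 in the Thy-1-negative cells of day 6. By day 16 the SSEA-1-positive cells had only 16.3, so the gene was already weak there before the iPSC stage. Fabp3, a fatty acid binding protein, had 2.49 in iPSCs and 96.6 in ESD3.

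Among genes with peaks in both and the highest signal, Msi2, an RNA-binding protein of stem cells, had 1539 and 1123 (-0.37), and Macf1, a cytoskeletal linker, had 1481 and 788 (0.08). The gene records Gm20388 and Fgfr2, which span 4435 and 3009 kb here, held 7189.8 and 5753, and 2633 and 1286. Mid1, Sfi1 and Gm2792 were also among them, with inputs of 3.45 to 39.5 times the median in iPSCs. The 5 genes with the largest ratio of midpoint sums to iPSCs were Pou5f1 and 2210408I21Rik, whose inputs were 28.2 and 37.7 times the median, Jmjd1c, Sirt1 and Usp34. By the overlap rule Jmjd1c, a histone H3 lysine 9 demethylase, had 846 and 20.1 (4.57). Sirt1, a deacetylase, had 255 and 6.94 (4.37), and Usp34, a deubiquitinase, had 264 and 7.40 (4.33). Towards ESD3 the rule named Aprt, Casc1, Pygm, Pycard and Robo1. Robo1, an axon guidance receptor, had 5.22 and 58.5 (-4.31), and Pygm, the muscle glycogen phosphorylase, had 15.8 and 58.2 (-2.71).

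Several of the strongest iPSC-only genes lay in a single stretch of chromosome 10. In a scan of 1 Mb windows, chosen after seeing the data, the stretch chr10:52000001-71000000 held 833 iPSC peaks and 115 ESD3 peaks. That is 1.02% of the iPSC list and 0.219% of the ESD3 list. Over its 14 windows with enough peaks, the median log2 ratio of summed tag count, relative to all windows, was 2.54 to the iPSC side. It was the longest such stretch, 19 Mb, and the others were 3 to 5 Mb long.

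In the other 15 H3.3 libraries, iPSCs included, the stretch held 0.764 to 1.04% of the peaks, so ESD3 alone was low. The input density in its peaks was 0.766 times the library median in ESD3 and 0.929 to 1.05 times in the 15 others. The median fold over input of the ESD3 peaks there was 5.24, against 4.25 in the whole list. Input and peaks thus both stood apart in ESD3, and the part of the number of DNA copies of this stretch in the result was not tested.

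**Figure D5:**
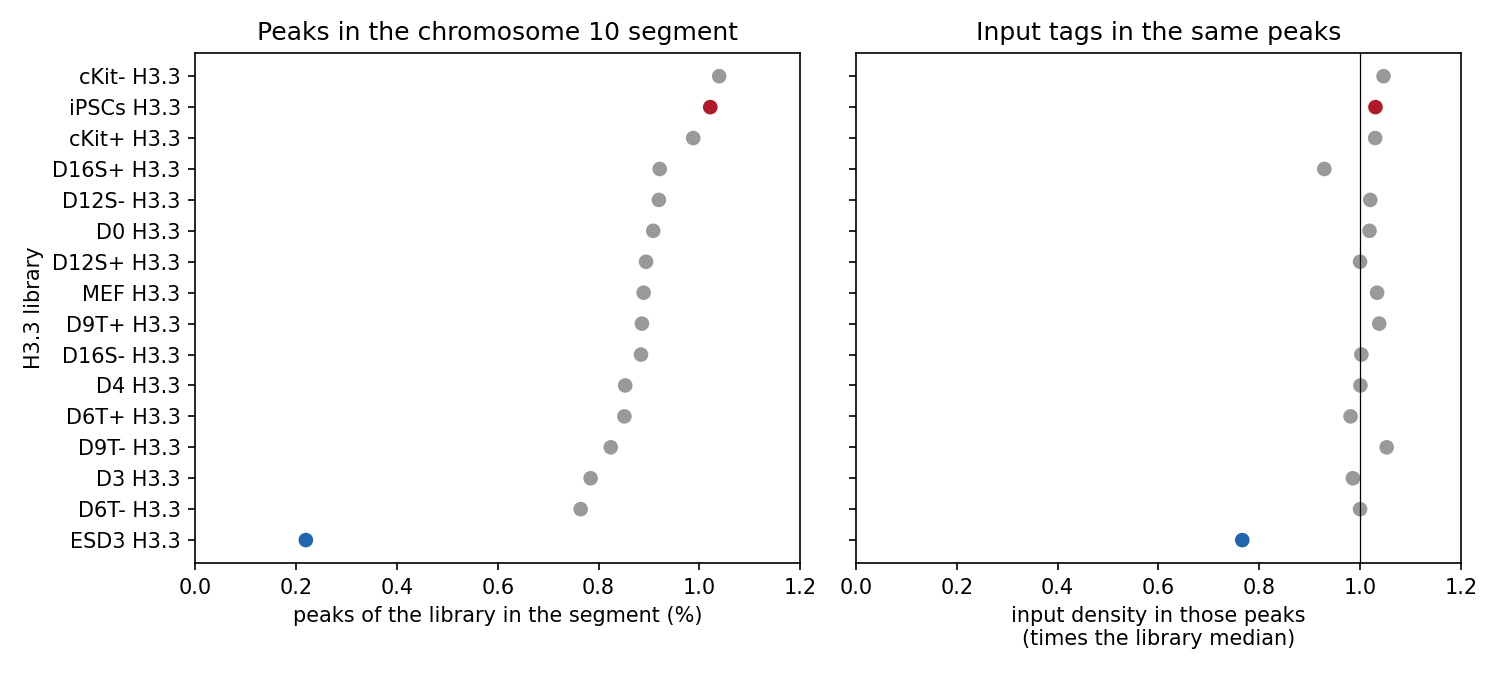
For each of the 16 H3.3 libraries (vertical axis), the left panel gives the percentage of its peaks that lie in the chromosome 10 stretch and the right panel the input density in those peaks, in times the library median. ESD3 is the lowest in both, with 0.219% and 0.766, and the other 15 lie between 0.764 and 1.04% and between 0.929 and 1.05.

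Of the 133 genes in the stretch, 35 had a peak in both lines, 57 in iPSCs only (42.9%), 1 in ESD3 only and 40 in neither. On the rest of chromosome 10, 11.1% of 912 genes had one in iPSCs only. Of the 35, 20 were at least 4-fold higher in iPSCs relative to the median of all genes, and the median was 2.09. They included Tet1, a DNA demethylase of pluripotent cells, with 937 in iPSCs and 117 in ESD3 (2.18), Jmjd1c and Sirt1. Nodal, a signal of the early embryo, had 100.1 and 17.1 (1.72), short of 4-fold. Mypn, Ccdc6, Ccdc109a, Ascc1 and Lims1 lie here too. Cdh23 was on the ESD3 side, with 7.17 and 22.2 (-2.46). Dnmt3l is on the same chromosome but outside the stretch.

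The stretch carried little of the whole-genome difference. Its 57 iPSC-only genes were 1.959% of all such genes by the overlap rule. Without it, 34.8% of iPSC and 59.7% of ESD3 peaks were shared, and 2964 genes were bound in iPSCs only and 1075 in ESD3 only by the midpoint rule. For single genes it mattered more, since it held 5 of the 10 strongest iPSC-only genes and 2 of the 5 genes with the largest ratio to iPSCs.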

How the data were processed

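ChIP-Seq peak lists of H3.3 in iPSCs and ESD3 cells were used, with the lists of the other 14 H3.3 libraries and of H3K4me3 and H3K36me3 in iPSCs for comparison. Per the methods and the file headers, the authors mapped reads to mm9 with STAR, removed reads with more than 2 mismatches or with several loci, and called peaks with HOMER findPeaks in histone style, each library against an input and without pooling. Versions are not given in the sources used here. The deposited normalized tag count is a signal scaled to 10 M tags. The deposited fold over input is a ratio of at least 2 for H3.3, and the deposited p-value against input had a limit of 0.0001.

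Peaks were annotated with GENCODE vM1 protein-coding genes on the same build, in Python 3.11.15 with pandas 2.3.3, numpy 2.4.6 and scipy 1.17.1. Peaks on unplaced sequences were left out. The input ratio is the input density of a peak over the median of its library. Named genes were those of the lists, the 10 strongest by midpoint in iPSCs only, in ESD3 only and in both, and the 5 with the largest ratio each way among sums of at least 50. The members and lists were chosen with earlier results of these data known. No test was made, with 1 library per line. Interval code was checked on simulated data. Alternatives were equal numbers of peaks, ranking per kb, a fold of at least 4, autosomes, no high-input peaks, an overlap of 0.5 of the peak and other gene rules.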

Additional observations from a re-analysis of the deposited data

How the results depend on the processing

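Of 73 alternative values for 10 results, 48 moved by less than the counting interval or 1.5 times, 25 moved and 0 reversed. Shares of peaks and gene counts among these results could not reverse, having no sign to change. The order of the 2 lines, which turned at 4-fold over input, was not one of the results counted. With equal numbers of top peaks, the share of iPSC peaks that were shared went from 34.6% to 46.0% (41.2% ranked per kb) and that of ESD3 peaks from 59.7% to 52.6% (47.2%). ESD3-only genes went from 1076 to 1975 (2138), the ratio of signal per kb in shared over iPSC-only peaks from 1.08 to 1.05 in both rankings, and the H3K4me3 difference from 17.9 to 13.8 points by tag count. Ranked per kb, the genic difference to ESD3-only peaks was -5.04 points. With a fold of at least 4 over input, the shares were 19.9% and 12.1%, the genes 4588 in both, 1826 in iPSCs only and 4469 in ESD3 only, the genic differences -8.70 and -16.5 points, the ratios per kb 1.15 and 1.06, and the H3K4me3 difference 10.8 points; fewer peaks, 22.6% and 59.6%, entered. With an overlap of at least 0.5 of the peak, the shares were 17.3% and 49.5%, the genic differences -5.46 and -3.95 points and the H3K4me3 difference 8.27 points. Apart from the fewer peaks and the stricter overlap, the cause was not tested.

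The rule of any peak base over a gene and the removal of the chromosome 10 stretch were chosen after seeing the data. No paired analysis was possible because each line had 1 library and no value came from a test. A site without a peak is one not called at this depth, and the deeper iPSC library had the lower floor per kb.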
